A study of Homo sapiens with 40 samples.

Results

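The trend of gene expression over glyphosate dose was examined among exposed HepaRG cultures only. It covered 15 of the 40 RNA-seq libraries of the series, which are those labelled as exposed, with 5 libraries at the lowest dose (10 µg/L), 5 at the middle dose (1 mg/L) and 5 at the highest (0.1 g/L). HepaRG is an established human hepatic cell line that differentiates into hepatocyte-like and biliary-like cells. All cultures came differentiated from 1 line and were held from day 8 to day 14 in test medium with 2% serum and 1% DMSO, with glyphosate or with the solvent alone. The 5 solvent control libraries of the same table are given as background and entered no trend. The labels do not say whether the 5 libraries of a dose came from separate cultures, so that the p-values measure the spread between these libraries, which may be technical.

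Glyphosate is a herbicide that blocks an enzyme of the shikimate pathway, by which plants and many microbes make aromatic amino acids and which animal cells lack. The hepatocyte is the main site of plasma protein synthesis, of fatty acid and cholesterol metabolism and of the oxidation and conjugation of foreign compounds. Genes of these functions, of the stress responses that a toxicant can set off in liver cells, and of the proteins and RNAs present in every cell were therefore followed over the 3 doses. Adjacent doses differ 100-fold, and the trend is given as a slope per dose step on the scale log2(FPKM + 1). FPKM corrects the fragments of a transcript for its length and for the size of the library. The log scale with a pseudocount of 1 understates the change of genes with low values.

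The number of reads behind a value is not held in an FPKM table, so that the depth of each library is unknown from it and no interval for counting error is given. The FPKM of an exposed library summed to between 282781 and 513059, and between 93958 and 118592 transcripts were above 0. The lowest sums belonged to 10 µg/L replicate 5 (282781) and 0.1 g/L replicate 2 (322884), and these libraries stood apart in the principal component analysis (PCA) below. They were also the libraries with the most multiply aligned pairs. The labelled cell type was checked against marker genes. All 15 hepatocyte markers had a mean of at least 1 FPKM, and albumin (ALB) had the highest mean among them. Of 10 biliary or progenitor markers, 5 reached this level, led by keratin 19 (KRT19), while EPCAM did not exceed 0.0387 FPKM in any exposed library. Of 9 mesenchymal markers 6 reached it, and of 8 endothelial and blood markers 3 did.

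No gene had a dose trend past the threshold. Of 9112 genes with a variance of FPKM above 1, 0 rose and 0 fell at an adjusted p under 0.05 in limma with Benjamini-Hochberg adjustment (0% of genes tested in each direction), and the smallest adjusted p was 1. At an unadjusted p under 0.05 there were 48 genes with a positive slope (0.527%) and 60 with a negative one (0.658%). An ordinary linear model per gene also gave 0 genes after adjustment, with 60 at an unadjusted p under 0.05. The standard error of the slope had a median of 0.124, and the 95% interval of the slope lay within 0.5 of 0 for 7996 genes (87.8%) and within 1 of 0 for 9006 genes (98.8%). A slope of 1 is a doubling of FPKM + 1 with each 100-fold step in dose, a size outside the interval of those 9006 genes.

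The comparisons between doses gave the same count. The F-test across the 3 doses called 0 genes after adjustment in limma (143 genes, 1.57%, at an unadjusted p under 0.05). Between 0.1 g/L and 10 µg/L there were also 0 genes (118, 1.29%, unadjusted). The comparison of 1 mg/L with 10 µg/L gave 0 (181, 1.99%, unadjusted) and that of 0.1 g/L with 1 mg/L gave 0 (136, 1.49%, unadjusted). Both of these use the 1 mg/L libraries, and their values are therefore only set side by side. Over all genes, the median difference in log2(FPKM + 1) was 0.18 between 1 mg/L and 10 µg/L and −0.16 between 0.1 g/L and 1 mg/L. Without 10 µg/L replicate 5 and 0.1 g/L replicate 2, these medians were 0.0028 and −0.02.

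The direction of the genes at an unadjusted p under 0.05 depended on how the libraries were scaled. Of the 108 genes, 44.4% had a positive slope. When each library was scaled to the same 75th percentile of FPKM, 637 genes had an unadjusted p under 0.05, and 90.6% of them had a positive slope, while the median slope of all genes moved from 0.01 to 0.05. Without 10 µg/L replicate 5 the positive share was 7.64% of 275 genes, and without 0.1 g/L replicate 2 it was 79.9% of 174 genes. The trend count stayed at 0 under percentile scaling, while the F-test then called 1 gene, APEH (adjusted p = 0.0182 in limma), which is described below. No direction is stated for the transcriptome as a whole.

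The genes of hepatocyte identity showed no trend past the threshold. ALB, the main plasma protein, had 11365, 14533, 9411, 17154 and 7274 FPKM in the 5 libraries at 10 µg/L. At 1 mg/L the ALB values were 11222, 12750, 12271, 15424 and 12672 FPKM, and at 0.1 g/L they were 11732, 6315, 11636, 16087 and 12573 FPKM. The 3 groups overlapped over most of their range, and the libraries with the lowest ALB were those with the lowest FPKM sums. The slope of ALB was −0.02 per dose step (95% interval −0.28 to 0.25), and the control libraries had a mean of 11206 ± 1483 FPKM (SD, n = 5). Among the 15 hepatocyte markers, 0 passed the adjusted threshold in limma and 0 had an unadjusted p under 0.05. Their median slope was 0.01, as was that of all genes tested. The member with the smallest p was transthyretin (TTR), a carrier of thyroid hormone and retinol, at 375 ± 117, 386 ± 94.8 and 307 ± 113 FPKM (mean ± SD, n = 5 per dose).

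The markers listed for other cell types were no more ordered by dose. KRT19, a keratin of biliary cells, had a slope of 0.05 (95% interval −0.2 to 0.29), and lumican (LUM), a matrix protein of fibroblasts, had one of 0.09 (−0.17 to 0.35). LUM had the highest mean of the mesenchymal markers, while VIM, THY1 and COL1A2 had means under 1 FPKM at each dose. The summed level of the biliary or progenitor markers ranged from 246 to 596 FPKM at 10 µg/L, from 436 to 556 at 1 mg/L and from 331 to 535 at 0.1 g/L. The summed hepatocyte markers ranged from 12542 to 26971, from 18318 to 24955 and from 11710 to 26384 FPKM. In RNA from a whole culture, fewer cells of a type and less RNA per cell cannot be told apart.

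**Figure D1:**
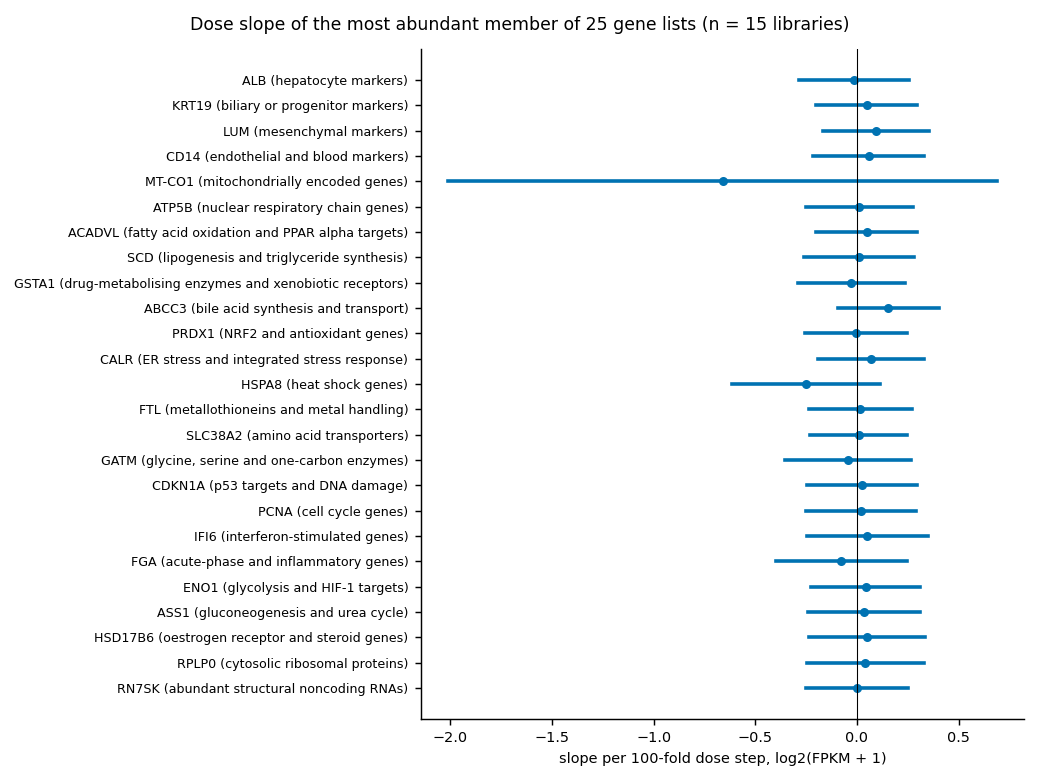
Slope of log2(FPKM + 1) per 100-fold dose step (points) with its 95% interval from limma (lines) for the member of highest mean FPKM in each of 25 gene lists, over 15 exposed libraries. All 25 intervals hold 0, and that of MT-CO1 is the widest, from −2.01 to 0.69.

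The 26 gene lists held 449 entries in the table, of which 359 passed the filter. None of these 359 passed the adjusted threshold in limma, and 5 (1.39%) had an unadjusted p under 0.05, against 1.19% of all genes tested. The list medians of the slope lay between −0.03 and 0.06. The 95% interval was within 0.5 of 0 for 305 of the 359 entries (85.0%).

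In lipid metabolism, the members with the highest levels kept a similar mean at each dose. Stearoyl-CoA desaturase (SCD), which makes monounsaturated fatty acids, had 220 ± 68 FPKM at 10 µg/L, 246 ± 42.1 at 1 mg/L and 226 ± 80.2 at 0.1 g/L, with a slope of 0.01 (95% interval −0.26 to 0.28). ACADVL, the first enzyme of very long chain fatty acid oxidation in mitochondria, had a slope of 0.05, and its interval lay within 0.5 of 0. All 17 lipogenesis genes and all 20 fatty acid oxidation genes that passed the filter had unadjusted p-values over 0.05, with medians of 0.01 and −0.0043. Among 22 genes of cholesterol synthesis, EBP, a sterol isomerase, had the smallest p. EBP had 22.6, 16.4, 12.1, 5.94 and 7.76 FPKM at 10 µg/L. It had 6.23, 2.32, 11.8, 5.36 and 1.39 FPKM at 1 mg/L, and 18.7, 2.6, 2.3, 4.14 and 3.97 FPKM at 0.1 g/L. Most of the lower values were at the higher doses, but 0.1 g/L replicate 1 overlapped the 10 µg/L libraries, and the slope was −0.58 ± 0.25 (SE, unadjusted p = 0.0284, adjusted p = 1 in limma). The name EBP held 78.4%, 40% and 47.2% of the FPKM of its assembled locus, which includes transcripts without a name, and the locus slope was −0.14 (95% interval −0.39 to 0.11).

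Among drug-metabolising enzymes, 2 of the 17 genes that passed the filter had an unadjusted p under 0.05, against 1.19% of all genes tested. Both had positive slopes. CYP1A1, the monooxygenase induced through the aryl hydrocarbon receptor, was listed at 0 in 4 libraries at 10 µg/L and at 0.0408 FPKM in replicate 2. At 1 mg/L it had 0.28 and 0.0542 FPKM in 2 libraries and was listed at 0 in the other 3. At 0.1 g/L it had 6.48 FPKM in replicate 3, 2.42 in replicate 5 and at most 0.185 in the other 3. The positive slope of 0.49 ± 0.2 (SE, unadjusted p = 0.0239, adjusted p = 1 in limma) thus went with 2 libraries. The name held 3.17%, 17.5% and 88.1% of the FPKM of its assembled locus, and the slope of the locus was 0.46 (95% interval 0.18 to 0.75). Control libraries reached 7.69 and 3.76 FPKM, and the other 3 had at most 0.175 FPKM, and the 10 µg/L and 1 mg/L libraries were thus at the level of the lower controls. The other gene was UGT1A1, which conjugates bilirubin, with 50.1 ± 18.9, 72.3 ± 27 and 81.9 ± 31.3 FPKM (SD, n = 5 per dose), a control mean of 66.1 ± 29.4 and an unadjusted p of 0.0402 in limma (adjusted p = 1). UGT1A1 shares exons with its neighbours in the UGT1A cluster, and its reads may have been divided among them. CYP1B1, another target of the aryl hydrocarbon receptor, had a slope of 0.19 (95% interval −0.11 to 0.50). GSTA1, a glutathione transferase and the most abundant gene of the list, had one of −0.03.

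AGXT, which converts glyoxylate to glycine in liver peroxisomes, was the member of the glycine, serine and one-carbon list with the smallest p. It had 8.05, 9.00, 0.955, 7.69 and 4.30 FPKM at 10 µg/L. The values were 9.36, 7.93, 7.64, 7.42 and 7.61 FPKM at 1 mg/L, and 8.40, 4.89, 10.6, 15.5 and 11.4 FPKM at 0.1 g/L. The groups overlapped, the control mean was 9.55 ± 1.85 FPKM (SD, n = 5), and the slope was 0.40 ± 0.18 (SE, unadjusted p = 0.033, adjusted p = 1 in limma). The name held 61.5%, 72.6% and 82.8% of its assembled locus, and the locus slope was 0.16 (95% interval −0.09 to 0.42).

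The stress responses had no member at an unadjusted p under 0.05. This held for 18 genes of the NRF2 and antioxidant list, 18 of the ER stress and integrated stress response, 10 heat shock genes, 12 metallothioneins and metal handling genes, and 14 p53 targets. Of all genes tested, only 1.19% had such a p. The members with the smallest p were KEAP1 (slope 0.20), which holds NRF2 in the cytoplasm, DDIT3 (0.24), a transcription factor of the integrated stress response, and HSPD1 (0.29), a mitochondrial chaperone. HSPD1 had 14 ± 5.33, 26 ± 4.77 and 20.7 ± 5.68 FPKM at the 3 doses, highest at 1 mg/L, with an unadjusted p of 0.0729 in limma (adjusted p = 1). Part of the FPKM at these places was assembled without a gene name, and the name HSPD1 held 17.5%, 31.7% and 28.6% of its assembled locus. The slope of the whole locus was −0.05 for HSPD1, 0.04 for KEAP1 and 0.04 for DDIT3. CDKN1A, the cell cycle inhibitor induced by p53, had a slope of 0.03 (95% interval −0.25 to 0.30).

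Apart from the structural noncoding RNAs described below, the other lists also had no member at an unadjusted p under 0.05 (1.19% of all genes). They were the nuclear respiratory chain (27 genes passed the filter, median slope 0.01), bile acid synthesis and transport (9, 0.02), amino acid transporters (11, 0.02), cell cycle genes (13, 0.01), interferon-stimulated genes (12, 0.01), acute-phase genes (17, 0.03), glycolysis (18, 0.03), gluconeogenesis and urea cycle (10, −0.01), steroid genes (4, 0.06) and cytosolic ribosomal proteins (28, 0.01). The acute-phase genes were among the least precise, with a median standard error of 0.231, and their interval was within 0.5 of 0 for 8 of 17. ORM2, an acute-phase plasma protein, ranged from 24.1 to 698 FPKM among the 10 µg/L libraries alone.

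Most of the mitochondrially encoded genes were measured too variably to show a trend of moderate size. MT-CYB was an exception, at 134 ± 43.6, 148 ± 24.4 and 126 ± 32 FPKM at the 3 doses (mean ± SD). Its slope was −0.03 (95% interval −0.29 to 0.23). MT-CO1, a subunit of cytochrome c oxidase, had 213, 216, 347, 395 and 699 FPKM at 10 µg/L. It had 429, 1771, 1487, 1790 and 357 FPKM at 1 mg/L, and at 0.1 g/L it was listed at 0 in replicate 1 and had 293, 1352, 411 and 280 FPKM in the others. Only 5 of the 11 mitochondrial genes that passed the filter had a 95% interval within 1 of 0, against 98.8% of all genes. MT-ND3, MT-ND4L and MT-ND6 were listed at 0 in all 15 libraries, although cells that respire use them. The share of a library's FPKM on mitochondrial genes was between 0.146% and 0.885%, and whether the low share affected the trend was not tested.

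The most ordered genes were taken as the 10 with the smallest p in each direction among genes with a mean of at least 1 FPKM. With a positive slope these were AC011447.1, MRPL53, C9orf78, LTV1, RPL37, RPL7A, SNORA17B, SLC35E2, MEA1 and NUDT9. With a negative slope they were ERC1, TMEM131, MGA, SIN3A, RNA5-8S4, ATRAID, MAN2C1, SAR1A, INCENP and APEH. Each of these 20 had an adjusted p of 1 in limma, so that they are described without a claim of change. Their unadjusted p ranged from 0.000316 for AC011447.1 to 0.00881 for NUDT9.

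MRPL53 (chr2:74471958-74473322, minus strand, GRCh38), a protein of the large subunit of the mitochondrial ribosome, was the 1 gene of 9112 (0.011%) in which all values at 0.1 g/L lay above all values at 10 µg/L. The lower dose gave 7.05, 9.42, 4.20, 4.13 and 8.57 FPKM and the 0.1 g/L dose gave 26.9, 11.8, 14.7, 14.7 and 16.5 FPKM. The 1 mg/L libraries, at 17.9, 11.5, 4.87, 15.7 and 6.78 FPKM, overlapped both. The slope was 0.62 ± 0.15 (SE, unadjusted p = 0.000664, adjusted p = 1 in limma). The control libraries ranged from 7.38 to 23.2 FPKM and overlapped each of the 3 doses.

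AC011447.1 (chr19:20125044-20125484, plus strand, GRCh38) had the steepest slope of the 20, at 1.53 ± 0.36 (SE, unadjusted p = 0.000316, adjusted p = 1 in limma). Its only transcript, ENST00000497576, is a single exon that GENCODE release 44 classes as a transcribed processed pseudogene. It had 16 FPKM in 10 µg/L replicate 1 and between 0.0661 and 0.216 in the other 4 libraries of that dose. At 1 mg/L it had 0.454, 0.507, 19.6, 11.5 and 7.06 FPKM, and at 0.1 g/L between 10.2 and 24.2 FPKM. Values near 0 were thus common at 10 µg/L and absent at 0.1 g/L, and the libraries fell into a low and a high set. Without 10 µg/L replicate 1 the slope was 1.90 and the adjusted p was 0.0119 in limma, the 1 call of that fit. Control libraries were at 0.506 FPKM in replicate 1 and between 11 and 17.7 FPKM in the other 4. A processed pseudogene resembles the mRNA it was copied from, and reads may have been divided between copies.

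Ribosomal proteins stood among the positive slopes. RPL7A, of the large cytosolic subunit, had 296, 74.4, 101, 175 and 16 FPKM at 10 µg/L and 407, 182, 284, 382 and 308 at 0.1 g/L, with the 1 mg/L libraries between 75.4 and 408 FPKM. RPL37, of the same subunit, had 6.66 ± 4.19, 25.1 ± 12.6 and 19.3 ± 6.11 FPKM (SD, n = 5 per dose), and its control mean was 38.5 ± 31.5 FPKM. Both have many pseudogene copies, and their values are uncertain where reads match several copies. The list of 28 cytosolic ribosomal proteins did not hold RPL7A or RPL37, and its highest slope was 0.195. It had 17 positive and 11 negative slopes, and their median was 0.01, as was that of all genes tested.

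Of the other genes with a positive slope, 5 had means under 10 FPKM at every dose. LTV1, an assembly factor of the small ribosomal subunit, was listed at 0 in 4 of 5 libraries at 10 µg/L, in 2 of 5 at 1 mg/L and in 0 of 5 at 0.1 g/L, where it had 3.42, 2.37, 3.9, 2.41 and 2.69 FPKM. It was also listed at 0 in 2 of 5 control libraries, and the other 3 had between 3.39 and 4.37 FPKM. NUDT9, which hydrolyses ADP-ribose, had 4.63 ± 1.39, 8.02 ± 0.826 and 8.03 ± 2.14 FPKM, and differed between 10 µg/L and the higher doses more than between these (SD, n = 5 per dose). SNORA17B, a small nucleolar RNA, had 0.52 ± 0.681, 1.61 ± 1.53 and 2 ± 1.06 FPKM, and SLC35E2, of a family of nucleotide sugar transporters, had 0.796 ± 1.03, 1.86 ± 1.37 and 3.06 ± 2.5 FPKM. MEA1 was at most 0.0334 FPKM in 4 libraries at 10 µg/L, 3 at 1 mg/L and 1 at 0.1 g/L, and between 3.06 and 14.8 FPKM in the others.

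Genes in which all values at 0.1 g/L lay below all values at 10 µg/L numbered 6 of 9112 (0.0658%). They were ERC1, TMEM131 and SIN3A, which are among the 20, and SPTAN1, LUZP6 and USP28, which were named after their values were seen. ERC1, a scaffold protein of vesicle transport, had 4.11, 7.15, 5.82, 4.86 and 3.09 FPKM at 10 µg/L. It had 4.20, 4.21, 4.42, 4.18 and 3.51 FPKM at 1 mg/L and 1.97, 3.01, 2.18, 2.11 and 2.73 FPKM at 0.1 g/L. The means of ERC1 fell in the order of dose, the control libraries (1.87 to 5.45 FPKM) overlapped each dose, and the slope was −0.40 ± 0.1 (SE, unadjusted p = 0.000996, adjusted p = 1 in limma). SIN3A, the scaffold of a histone deacetylase complex, had 8.05 ± 2.71, 5.94 ± 0.773 and 4.37 ± 0.965 FPKM. TMEM131, a membrane protein of the secretory pathway, had 8.43 ± 3.52, 6.64 ± 1.82 and 3.84 ± 0.783 FPKM (SD, n = 5 per dose). SPTAN1, a spectrin of the membrane skeleton, had 46.8 ± 28.7, 38 ± 29.5 and 17.4 ± 3.79 FPKM. USP28, a deubiquitinating enzyme, had 3.25 ± 0.559, 3.55 ± 1.93 and 1.86 ± 0.436 FPKM, and its control mean was higher at 4.98 ± 2.69 FPKM. LUZP6 had 1.25 ± 1.22, 1.09 ± 1.45 and 0.253 ± 0.15 FPKM, close to the pseudocount. In 0 genes were all 3 doses separate and in order.

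**Figure D2:**
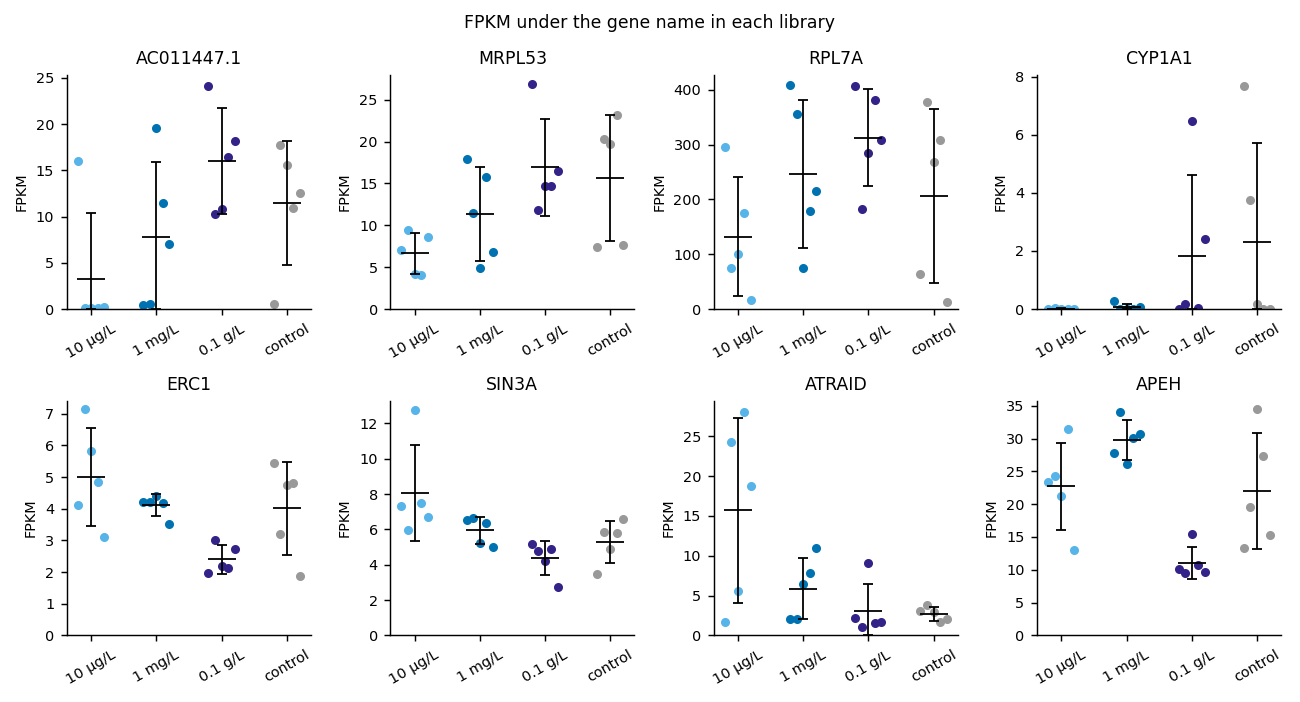
FPKM of 8 genes in each exposed library by glyphosate dose, with the solvent controls at the right (points, 5 libraries per group). Black lines are the mean and SD, with the lower bar cut at 0. The values of MRPL53, ERC1 and SIN3A at 10 µg/L and 0.1 g/L do not overlap, CYP1A1 is above 1 FPKM in 2 libraries at 0.1 g/L and 2 controls, and the controls of ERC1 and MRPL53 overlap each dose group.

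ATRAID, a protein first described through its induction by retinoic acid, had 1.65, 24.3, 5.63, 28 and 18.8 FPKM at 10 µg/L and 2.14, 1.06, 9.05, 1.5 and 1.69 FPKM at 0.1 g/L. The 10 µg/L libraries held both the highest values and 1 of the low ones. The control libraries, between 1.68 and 3.78 FPKM, lay with the 0.1 g/L libraries. SAR1A, the GTPase that starts the coat of vesicles leaving the ER, had 23.2 ± 6.09, 17.1 ± 8.87 and 11.5 ± 5.79 FPKM (SD, n = 5 per dose). MGA, a DNA-binding partner of MAX, had 4.43 ± 1.41 FPKM at 10 µg/L and 1.46 ± 0.584 and 1.69 ± 0.921 at the higher doses. INCENP, of the chromosomal passenger complex, had 5.09 ± 1.3, 3.32 ± 0.619 and 2.88 ± 0.687 FPKM. MAN2C1, an alpha-mannosidase of the cytosol, had 11.4 ± 5.3, 8.31 ± 1.68 and 5.87 ± 1.53 FPKM. RNA5-8S4, 1 of several near-identical copies of 5.8S ribosomal RNA, had 49.6 ± 26.6, 48.9 ± 30.7 and 14 ± 11 FPKM in libraries depleted of ribosomal RNA, and its value is uncertain for both reasons.

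The deposited values are of transcripts, and a gene name can carry only part of the FPKM of its place in the genome. StringTie also assembled transcripts that have no gene name, and it grouped both kinds into loci. The slopes were therefore computed again for the FPKM of the whole assembled locus. Among the 20 genes, the locus slope was less than 50% of the gene slope in size for 11 and had the other sign for 2 (APEH and RNA5-8S4). The 95% interval of the locus slope excluded 0 for 9 of the 20, of which 4 were positive (AC011447.1, MRPL53, RPL7A and SNORA17B) and 5 were negative (MGA, SIN3A, ATRAID, MAN2C1 and SAR1A). SIN3A and MAN2C1 lie in the same assembled locus and share this value. Other loci also hold several gene names, such as those of LTV1 and RPL7A (5 names each) and of SNORA17B and SLC35E2 (4 each). LTV1 held 3.47%, 8.66% and 15.2% of its locus at the 3 doses, and SNORA17B held 4.94%, 9.82% and 12.9%. Most of the FPKM behind these 2 locus slopes was thus of other transcripts, some of them of other genes. The locus sum holds the FPKM by which the 20 were picked, so that these intervals give no separate support for them. For all 20 genes, the share of the locus under the gene name moved from 10 µg/L to 0.1 g/L in the direction of the gene's slope. The 20 were picked by the FPKM under the name, which also enters the share. This agreement and the smaller locus slopes were thus partly set by the choice, and no conclusion is drawn from them.

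**Figure D3:**
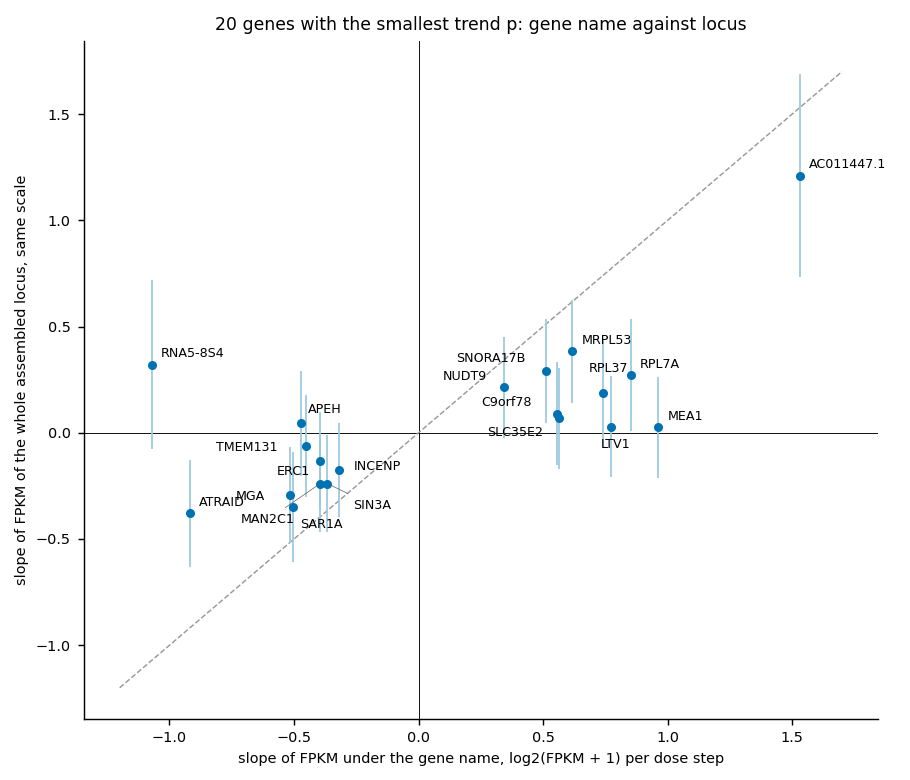
Slope per dose step of the FPKM under the gene name (horizontal axis) and of the whole assembled locus with its 95% interval (vertical axis, both log2(FPKM + 1)), for the 20 genes with the smallest p. On the dashed line both slopes are equal. AC011447.1 has a locus slope of 1.21, while MEA1 and LTV1 have locus slopes of 0.03 at gene slopes of 0.96 and 0.77. The locus of LTV1 holds 5 gene names, and LTV1 held at most 18.3% of its FPKM in any exposed library.

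C9orf78, a protein bound to the spliceosome, shows how a name and its locus differed. Under the gene name it had 4.70 ± 2.07, 11.4 ± 2.57 and 11 ± 3.04 FPKM at the 3 doses, and these values were 48.4%, 95.1% and 100% of the locus. The locus slope was 0.09 (95% interval −0.15 to 0.33), against 0.56 for the gene name. In 10 µg/L replicate 2, 6.94 FPKM stood on an assembled transcript of 9 exons without a name, which was listed at 0 in all 5 libraries at 0.1 g/L. The transcript ENST00000372447, also of 9 exons, had 0 FPKM in 10 µg/L replicates 2 and 3 and between 6.3 and 13.9 FPKM at 0.1 g/L.

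APEH (chr3:49674002-49683963, plus strand, GRCh38), which removes acylated amino acids from the start of peptides, also differed between its name and its locus. Under its name it had 23.4, 24.3, 21.2, 31.4 and 13.1 FPKM at 10 µg/L. It had 27.7, 34.1, 26.2, 30.2 and 30.8 FPKM at 1 mg/L and 10.1, 9.46, 15.4, 10.7 and 9.65 FPKM at 0.1 g/L, so that the 2 higher doses did not overlap. These values were 76.4%, 90.7% and 36.7% of the locus. An assembled transcript of 23 exons without a gene name (chr3:49673953-49683498) was listed at 0 in all 10 libraries at 10 µg/L and 1 mg/L, and had 25.7, 5.37, 16.7, 9.11 and 5.91 FPKM at 0.1 g/L. It was also above 0 in 2 of 5 control libraries, at 8.78 and 22.9 FPKM. Under 75th percentile scaling the F-test called APEH (adjusted p = 0.0182 in limma), with a slope of −0.43 under its name. In the fit over 19917 transcripts it was the 1 transcript that differed between 0.1 g/L and 10 µg/L (adjusted p = 0.00044 in limma). The whole APEH locus had a slope of 0.04 (95% interval −0.2 to 0.29). The transcript was thus above 0 at the highest dose and listed at 0 at both lower doses, and the control libraries held both states.

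Of the 9112 genes, 9063 lay in 1 assembled locus. For 3535 of these the name held at least 99% of the locus FPKM in every library, and 3 of them (0.0849%) had an unadjusted trend p under 0.05 (AC073508.3 and AC092745.3 with positive slopes, AL671277.1 with a negative one). The interval of the slope lay within 0.5 of 0 for 97.8% of the 3535. The other 5528 genes are not compared with them, since a gene whose FPKM moved between named and unnamed transcripts is among these by that change. Over the 9025 loci that passed the same filter, limma called 1 locus after adjustment, that of AC011447.1 and ZNF90 (slope 1.21, adjusted p = 0.0445), and 69 (0.765%) at an unadjusted p under 0.05.

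The extreme slopes of the whole table belonged to a single place. RN7SL1 and AL139099.5 are names for 7SL RNA, the RNA of the signal recognition particle, which brings ribosomes that make secreted proteins to the ER. Both transcripts are 1 exon on the plus strand of chromosome 14 and end at the same base, and AL139099.5 starts 1 base earlier.

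In each library only 1 of these names carried FPKM. RN7SL1 was above 0 in 1 of 5 libraries at 10 µg/L (20403 FPKM in replicate 5), in 2 of 5 at 1 mg/L (46856 and 24831 FPKM) and in 4 of 5 at 0.1 g/L (26078, 32049, 31679 and 34768 FPKM). AL139099.5 carried between 23372 and 46827 FPKM in every other library and was listed at 0 in these 7. In the 5 controls AL139099.5 carried between 21909 and 36906 FPKM and RN7SL1 was listed at 0. The slope was 4.54 for RN7SL1, the highest of the 9112 genes, and −4.50 for AL139099.5, the lowest, with an unadjusted p of 0.0147 for RN7SL1 and an adjusted p of 1 in limma. The locus as a whole had 37956 ± 14182 FPKM at 10 µg/L, 36924 ± 7620 at 1 mg/L and 34411 ± 4206 at 0.1 g/L (SD, n = 5), with a slope of −0.03 (95% interval −0.27 to 0.21). RN7SL2, another 7SL gene, had a slope of 0.0012, and RN7SK, an RNA that holds back transcription elongation, one of −0.00042. The slopes of the 2 names were thus opposite and nearly equal in size over a locus sum whose interval held 0.

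**Figure D4:**
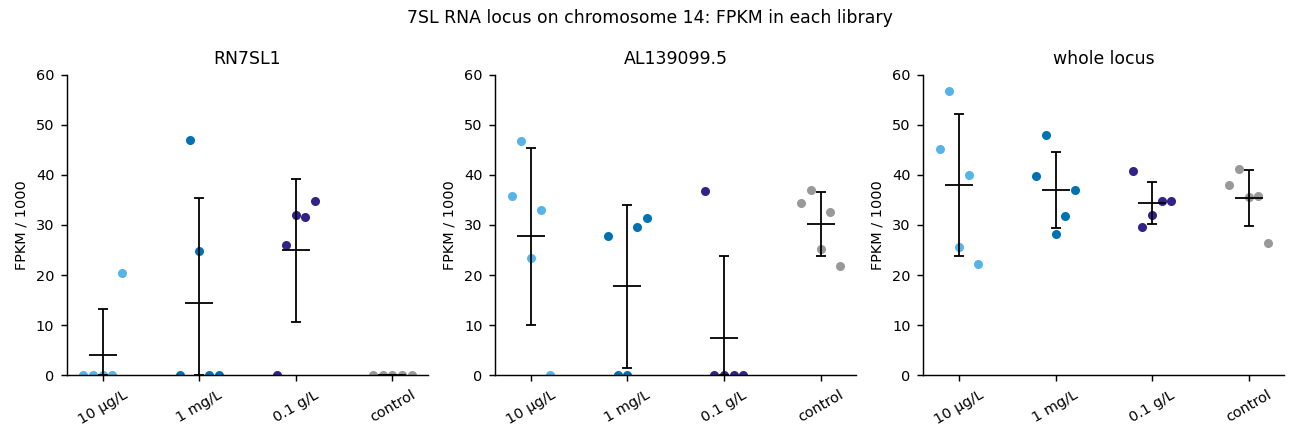
FPKM (in units of 1000) of RN7SL1, AL139099.5 and their whole assembled locus in each library, by glyphosate dose with the solvent controls at the right (points, 5 libraries per group, lines the mean and SD with the lower bar cut at 0). RN7SL1 is above 0 in 1, 2, 4 and 0 of 5 libraries from left to right, and the locus sums overlap between all groups.

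In the PCA of the 9112 genes, the first component held 39.8% of the variance and did not order the doses. Its mean scores at 10 µg/L and 0.1 g/L differed by 0.0809 (2-sided exact permutation p = 1). The scores of 10 µg/L replicate 5 (−77.5) and 0.1 g/L replicate 2 (−57.7) lay apart from the other 13 libraries (−14.8 to 27.1). The second component (9.41%) had mean scores of −6.58 ± 6.35, 2.39 ± 19.7 and 4.2 ± 15.8 at the 3 doses (SD, n = 5), with an exact permutation p of 0.198 for the end doses (0.298 adjusted over 3 components). The difference between the end doses on this component was 10.8. Under 75th percentile scaling the second component had a difference of 24.3, with an adjusted exact permutation p of 0.0238, which is under 0.05. Whether the second component is the same axis under both scalings was not tested. On the third component (6.24%) the means were −8.53 ± 8.7, 0.644 ± 15.5 and 7.89 ± 4.43. The difference of 16.4 between the end doses had an exact permutation p of 0.0238, and 0.0714 after adjustment, where the smallest p that 5 against 5 libraries allow is 0.00794. At 0.1 g/L all 5 scores on this component were above 0, and at 10 µg/L 4 of 5 were below 0. The highest and the lowest loading on it were those of RN7SL1 and AL139099.5, the 2 names of the 7SL locus, and RPL7A, AC011447.1 and ATRAID were among the 15 at either end.

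**Figure D5:**
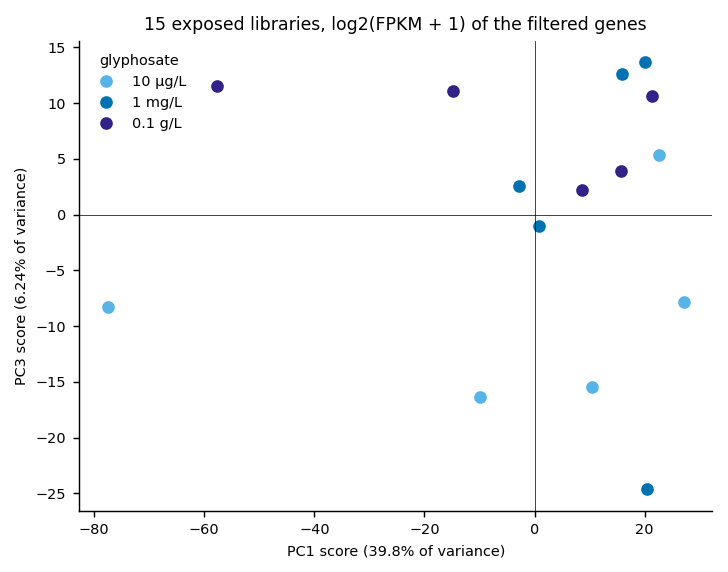
Scores of the 15 exposed libraries on principal components 1 and 3 (PC1 and PC3) of log2(FPKM + 1), coloured by glyphosate dose. The libraries with first component scores of −77.5 (10 µg/L) and −57.7 (0.1 g/L) stand at the left, and PC3 has all 0.1 g/L libraries above 0.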

How the data were processed

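Total RNA of HepaRG cultures was depleted of ribosomal RNA and sequenced from directional libraries. Reads were mapped by the authors with HISAT2 to the GRCh38 genome. Transcripts were then assembled and measured by StringTie, guided by Ensembl 89, and the deposited glyphosate table holds the FPKM of 234960 of them in 25 libraries, each in a column of its own. In 6 deposited columns 1 value was below 0, and these columns were treated as a score, with the value set to 0. The paper describes this pipeline for the series and not for glyphosate separately. FPKM were summed per gene name (56568 names, while 35782 transcripts have none), so that no count test applied and the table does not hold the depth. Precision was that of 5 libraries per dose without rescaling, and the unadjusted counts changed with the scaling.

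Genes with a variance of FPKM above 1 over the 15 exposed libraries (9112) were fitted as log2(FPKM + 1) with limma 3.58.1 in R 4.3.3 over dose steps 1, 2 and 3, and by dose for the F-test and contrasts, with 2-sided tests and Benjamini-Hochberg adjustment at 0.05. Scores of the centred PCA were compared by exact permutation (252 splits). No covariate was used. Named genes were those past the threshold or, with fewer than 10, the 10 with the smallest p in each direction at a mean of at least 1 FPKM, and in each of 26 lists the member with the smallest p and the one of highest mean. The members and lists were chosen with earlier results of these data known. Alternatives were the pseudocount (0.1), the filter, the scaling, the spread estimate, covariates, the libraries in the fit, transcripts, a linear dose scale and, added after the data were seen, assembled loci and percentile scaling combined with loci, with the replicate block and with 2 libraries left out. The fits were checked on simulated data in which only genes of higher FPKM were changed. That check does not cover genes of low FPKM or FPKM that moves between the transcripts of a locus. Annotation came from GENCODE release 44. Figures were drawn with matplotlib 3.10.9, and other steps used pandas 2.3.3 and numpy 2.4.6 under Python 3.11.15. A gene of the cholesterol list and a sequence are not reported here. The PCB 126 table was not used here.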

Additional observations from a re-analysis of the deposited data

Results flagged for a closer look

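A library was far from the other 4 of its dose in 16 of 93 groups of 5 examined (27 genes, the FPKM sum and 3 PCA scores at 3 doses, with gene values on the scale log2(FPKM + 1)). A group was picked when the gap to the nearest library was more than 0.71 of the range, which chance gives in about 1 of 20 groups. The values are FPKM.

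At 10 µg/L the far libraries were the highest for AC011447.1 (replicate 1, 16), LTV1 (replicate 3, 3.31, with the other 4 listed at 0), RPL37 (replicate 3, 14.1), SLC35E2 (replicate 1, 2.61), MEA1 (replicate 2, 5.12), CYP1A1 (replicate 2, 0.0408) and RN7SL1 (replicate 5, 20403). AL139099.5 had its lowest value there, listed at 0 in replicate 5, the library in which RN7SL1 was above 0. At 1 mg/L, ERC1 was lowest in replicate 5 (3.51), while CYP1A1 (0.28) and AGXT (9.36) were highest in replicate 1. At 0.1 g/L, ATRAID (9.05) and APEH (15.4) were highest in replicate 3 and EBP (18.7) in replicate 1, and in that library RN7SL1 was listed at 0 and AL139099.5 had 36819.

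Of these 16, 8 were in the 10 µg/L group. For LTV1, RPL37, SLC35E2, MEA1 and AC011447.1, the high library at 10 µg/L was within the range of the 0.1 g/L libraries. The cause of the far values was not tested.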

How the results depend on the processing

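The count of dose trends was 0 in the reported fit and stayed at 0 under 28 of 30 planned and 3 of 4 added alternatives. Array weights gave 1 trend (ERC1, slope −0.48, adjusted p = 0.0364), 2 genes in the F-test and 2 between 0.1 g/L and 10 µg/L (APEH and ERC1 in both). Leaving out 1 library at a time gave between 0 and 1 trends, between 0 and 1 genes in the F-test and between 0 and 1 between the end doses. The trend and the end-dose call came without 10 µg/L replicate 1 (AC011447.1, slope 1.90), and the F-test call without 10 µg/L replicate 5 (APEH, adjusted p = 0.00615). The F-test called 1 gene, APEH, under 75th percentile scaling, under quantile normalization, with an equal FPKM total, with a library-size term, without the 2 libraries with the most multiply aligned pairs (10 µg/L replicate 5 and 0.1 g/L replicate 2), and without them under percentile scaling (added). It called 1 gene with no filter (RN7SL587P, under 1 FPKM). Over transcripts it called 1, as did the comparison of the end doses, in both cases the unnamed APEH transcript. Over assembled loci (added) there were 1 trend, 4 loci in the F-test and 2 between the end doses. The PC2 difference was 10.8 in the reported fit and 24.3 under 75th percentile scaling, where the adjusted exact permutation p was 0.0238 and thus under 0.05. Whether PC2 is the same axis under both scalings was not tested. No other named gene was called by the trend under any alternative. Each list median of the slope moved by less than the mean SD, between libraries of a dose, of the list's median log2(FPKM + 1). This SD is one of levels, so the limit does not show that a median kept its sign. Under 75th percentile scaling the median of the fatty acid oxidation list went from −0.0043 to 0.0377. That of gluconeogenesis and urea cycle went from −0.0102 to 0.029, and that of structural noncoding RNAs from −0.0298 to 0.0154. The median of all genes went from 0.0109 to 0.0529.

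Unadjusted counts moved more. The 108 genes of the trend became 637 under percentile scaling, 326 under quantile normalization, 240 with an equal total, 295 with array weights, 296 with a library-size term, 60 in the ordinary linear model, 185 without the 2 libraries, 865 of 42916 with no filter and 643 of 19917 transcripts. Over loci with percentile scaling, 1157 of 1164 were positive. With dose on a linear scale, 19.6% of 112 were positive.

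The labels state no replicate numbers, and the runs of library numbers were used as a replicate block. Libraries of the same run and different doses had correlated deviations of −0.176 to 0.26 (15 pairs, 4 over 0.1, against 4 of 60 pairs from different runs). The 3 pairs of the first run had 0.23 to 0.26, and 7 of 15 libraries correlated best with one of their own run, a hint from the data only. The median was 0.0577 within runs and −0.0174 between runs. Since not every pair exceeded 0.1, the runs were not taken to pair the samples, but this limit cannot decide whether they do. The block gave 0 trends and 154 genes at an unadjusted p under 0.05.

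Changes under about 0.5 per step in genes with a wide interval, and trends in genes near 0 FPKM, could not be seen with 5 libraries per dose. The separation of loci from names rests on the assembly that was deposited.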

Other observations

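Some assembled loci outside the named genes differed between doses in the fit over loci, which was added after the data were seen. SNORA26, a small nucleolar RNA that guides pseudouridylation (chr4:52713249-52713370), had 2.48, 1.6, 4.35, 5.78 and 1.39 FPKM at 10 µg/L, between 0.389 and 2.40 at 1 mg/L, and 0.398, 0.5, 1.59, 0.601 and 0 at 0.1 g/L. The end doses differed with an adjusted p of 0.0341 in limma, and the locus slope was −0.65. The control libraries reached 4.53 FPKM in replicate 1, were listed at 0 in 2 libraries and had 0.393 and 1.38 FPKM in the others, so that 1 control lay within the range of 10 µg/L and 4 within that of 0.1 g/L.

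An unnamed 2-exon transcript on the minus strand at chr12:95488254-95571337 was highest at the middle dose. It had 6.87, 9.68, 0.615, 5.32 and 5.38 FPKM at 1 mg/L, at most 1.03 FPKM at 10 µg/L, at most 1.5 at 0.1 g/L and at most 1.43 in the controls (adjusted p = 8.18e-07 in the limma F-test over loci). Its slope over dose was −0.04. The share of a library's FPKM on transcripts without a gene name was between 12.2% and 27.5% at 10 µg/L, between 11.5% and 15.2% at 1 mg/L and between 12.4% and 24.1% at 0.1 g/L.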
